A study of Mus musculus with 8 samples.

Results

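Forkhead genes encode transcription factors that bind DNA through a shared winged-helix domain and fall into lettered subfamilies. Their levels were followed in RNA from wild-type mouse embryonic fibroblasts (connective-tissue cells cultured from the mouse embryo) kept for 4 days in 1 of 4 media. Earlier results of these data were known when the set was chosen. The genes were taken by symbol: protein-coding genes named Fox, a letter from a to s and a number. This gave 43 of the 54532 genes of the table, of which 28 had enough counts to be tested, 12 had fewer and 3 had none. All 4 groups are bulk RNA from the same kind of fibroblast, with 2 libraries per group and 10958430 to 11913143 counts per library. CFAE+8+MSC cells received CHIR99021, which inhibits the kinase GSK-3, Forskolin, which activates adenylyl cyclase, AM580, which activates retinoic acid receptor alpha, EPZ04777 (as spelled in the labels), which inhibits the DOT1L histone methyltransferase, A-83-01 (an inhibitor of the TGF-beta type I receptor) and MSC2530818 (an inhibitor of the kinases CDK8 and CDK19). CFAE+6 cells received the first 4 compounds with E-616452, also an inhibitor of the TGF-beta type I receptor. CFAE+8 cells received the first 4 with A-83-01. MEF cells were kept in the medium labelled MEF medium. Doses are not given in the labels, and nothing in them ties the 2 libraries of a group to separate cultures, so p-values reflect the spread between these libraries alone, which may be technical. The design asks what the cocktails did to the fibroblasts and what adding MSC2530818 or exchanging the TGF-beta receptor inhibitor changed. The series title names CDK8 as a barrier to reprogramming, and no group received MSC2530818 without the other compounds.

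Several forkhead subfamilies pattern mesenchyme: Foxc, Foxd and Foxf factors act in somites, kidney, head and gut mesenchyme during development. Others mark specific lineages, such as Foxa factors in endoderm, Foxe3 in the lens and Foxl2 in ovarian granulosa cells. Others again work in most tissues. FOXO factors are held out of the nucleus when the kinase AKT phosphorylates them, FOXM1 drives genes of mitosis, and FOXK factors regulate metabolism and autophagy. An mRNA level shows neither the amount nor the location of the protein.

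Of the 9 forkhead genes that were at least 1.5-fold higher in CFAE+8+MSC than in CFAE+8 (values below), 6 have an entry in the RefSeq promoter table of build GRCm38.p6, which is the assembly named mm10. The 250 bases before the start are given for these 6, 5′ to 3′ on the strand of the gene, because all 6 genes rose in that comparison. Capitals mark a match to a searched motif.
Foxe3 (chr4:114926068-114926317, minus strand): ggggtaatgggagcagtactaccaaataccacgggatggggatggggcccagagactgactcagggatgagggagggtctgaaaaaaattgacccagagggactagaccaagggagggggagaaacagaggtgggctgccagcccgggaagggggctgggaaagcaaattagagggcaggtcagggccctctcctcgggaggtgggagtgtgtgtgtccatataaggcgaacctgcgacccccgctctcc
Foxd3 (chr4:99656049-99656298, plus strand): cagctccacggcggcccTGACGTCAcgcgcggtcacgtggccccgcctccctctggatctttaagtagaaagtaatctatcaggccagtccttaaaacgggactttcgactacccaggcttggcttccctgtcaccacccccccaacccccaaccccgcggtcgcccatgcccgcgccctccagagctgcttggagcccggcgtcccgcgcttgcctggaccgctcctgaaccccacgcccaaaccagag
Foxa1 (chr12:57546112-57546361, minus strand): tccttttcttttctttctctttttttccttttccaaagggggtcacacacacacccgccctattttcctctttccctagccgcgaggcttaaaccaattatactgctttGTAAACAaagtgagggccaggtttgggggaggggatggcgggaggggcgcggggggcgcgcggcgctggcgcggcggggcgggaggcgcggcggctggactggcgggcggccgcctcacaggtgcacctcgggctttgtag
Foxf2 (chr13:31625566-31625815, plus strand): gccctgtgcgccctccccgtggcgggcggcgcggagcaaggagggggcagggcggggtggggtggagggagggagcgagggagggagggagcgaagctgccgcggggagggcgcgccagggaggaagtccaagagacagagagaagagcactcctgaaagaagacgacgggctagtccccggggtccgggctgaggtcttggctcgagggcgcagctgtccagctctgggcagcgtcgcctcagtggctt
Foxd1 (chr13:98353995-98354244, plus strand): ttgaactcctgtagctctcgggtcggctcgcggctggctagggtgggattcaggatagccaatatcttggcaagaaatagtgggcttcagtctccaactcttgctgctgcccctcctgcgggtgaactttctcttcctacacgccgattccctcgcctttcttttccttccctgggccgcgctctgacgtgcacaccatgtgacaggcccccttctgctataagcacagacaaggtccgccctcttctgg
Foxc1 (chr13:31806396-31806645, plus strand): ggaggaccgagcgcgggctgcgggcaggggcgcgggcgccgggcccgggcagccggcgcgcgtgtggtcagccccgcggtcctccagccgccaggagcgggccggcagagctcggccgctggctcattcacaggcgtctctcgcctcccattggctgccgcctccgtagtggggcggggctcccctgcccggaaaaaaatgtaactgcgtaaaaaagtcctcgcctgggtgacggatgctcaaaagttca

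The capitals in Foxd3 are the cAMP response element TGACGTCA, a palindrome, and those in Foxa1 are the forkhead site GTAAACA. Motifs were searched on both strands of windows of 300 bases (250 before the start and 50 after it). The cAMP response element was in 1.79% and the forkhead site in 3.65% of all 32851 promoters of the table. The TCF/LEF site CTTTGAT, in 3.73% of all promoters, and the cell cycle element TTTGAA, in 17.9%, were in none of these 6. No motif overlapped another. The G and C content of the 6 printed stretches ran from 57.2% in Foxd1 to 71.6% in Foxf2, beside a median of 52.7% over all 300-base windows. In Foxa1, Foxd1 and Foxc1 the last bases (10, 3 and 13) lie inside an exon annotated in GENCODE M21, and the other 3 stretches lie outside the exons of their gene. Foxq1, Foxs1 and Foxc2 were the other 3 genes of the 9. Over all forkhead genes, 27 matched the promoter table with 30 windows, of which 1 held the forkhead site, 1 the cAMP response element, 3 the cell cycle element and 0 the TCF/LEF site.

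In the comparison of CFAE+8+MSC with CFAE+8, which differ by MSC2530818, 13 of the 28 tested forkhead genes (46.4%) rose and 1 (3.57%) fell, by edgeR's quasi-likelihood test with p-values adjusted by Benjamini-Hochberg across the 15470 genes tested and a threshold of 0.05. Over all genes tested, 15.6% rose and 13.8% fell. All adjusted p-values below come from this test unless another tool is named. Of the 13, 9 rose at least 1.5-fold: Foxq1, Foxs1, Foxe3, Foxd3, Foxa1, Foxf2, Foxc2, Foxd1 and Foxc1. The other 4 rises, in Foxk1, Foxl2, Foxp4 and Foxp1, were smaller, and Foxm1 fell. The median log2 fold change of the 28 was 0.32, beside -0.0045 over all genes tested. A gene can pass the filter on low counts through 1 group only, so these shares describe the genes that passed and not the whole set of 43. Levels are CPM (counts scaled to library size with TMM factors), and fold changes are log2. DESeq2 called 9 of the 28 higher and 1 lower and gave Foxe3 no adjusted p.

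**Figure D1:**
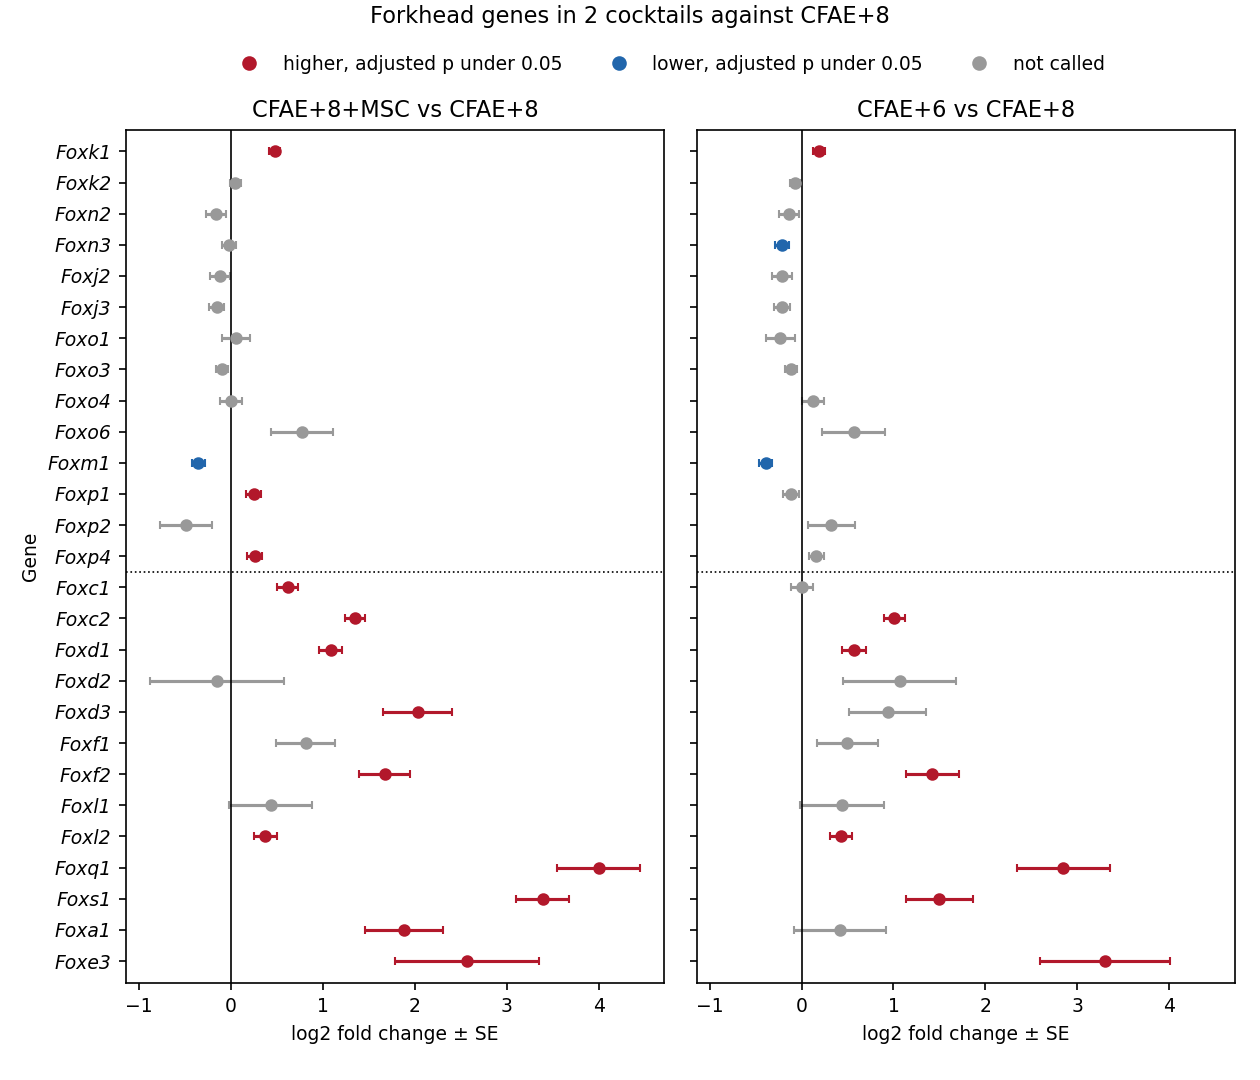
Log2 fold change with its standard error (horizontal axis) for 27 of the tested forkhead genes (vertical axis) in CFAE+8+MSC against CFAE+8 on the left and CFAE+6 against CFAE+8 on the right; red points are higher and blue points lower at an adjusted p under 0.05, and both panels share the CFAE+8 libraries. The 14 genes above the dotted line belong to the Foxj, Foxk, Foxm, Foxn, Foxo and Foxp subfamilies and the 13 below it to other subfamilies. Foxq1 at 4.00 and Foxs1 at 3.39 lie farthest to the right on the left, and Foxe3 at 3.30 on the right.

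Foxs1, a factor of embryonic sensory neurons and of cells around vessels, stood apart between the cocktails. It had 8.23 and 8.95 CPM in CFAE+8+MSC, 2.20 and 2.40 CPM in CFAE+6, 0.768 and 0.848 CPM in CFAE+8 and 13.4 and 12.2 CPM in MEF. The groups did not overlap: MEF was highest, CFAE+8+MSC next, CFAE+6 far lower and CFAE+8 lowest. Foxs1 was higher in CFAE+8+MSC than in CFAE+8 by 3.39 (SE 0.29, adjusted p = 1.16e-10) and in CFAE+6 than in CFAE+8 by 1.497 (SE 0.36, adjusted p = 0.00224). Against MEF it fell by 2.47 in CFAE+6 (SE 0.22, adjusted p = 8.08e-11) and by 3.97 in CFAE+8 (SE 0.27, adjusted p = 1.60e-13), the largest fall of the 28 genes in CFAE+8. The CFAE+8+MSC libraries were -0.57 from MEF (SE 0.18, adjusted p = 0.00737), a call lost without the first CFAE+8+MSC library (adjusted p = 0.0607), without the first MEF library (0.0665) and with DESeq2 (0.11). Foxs1 lies on chromosome 2, 152931898 to 152933208, minus strand.

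**Figure D2:**
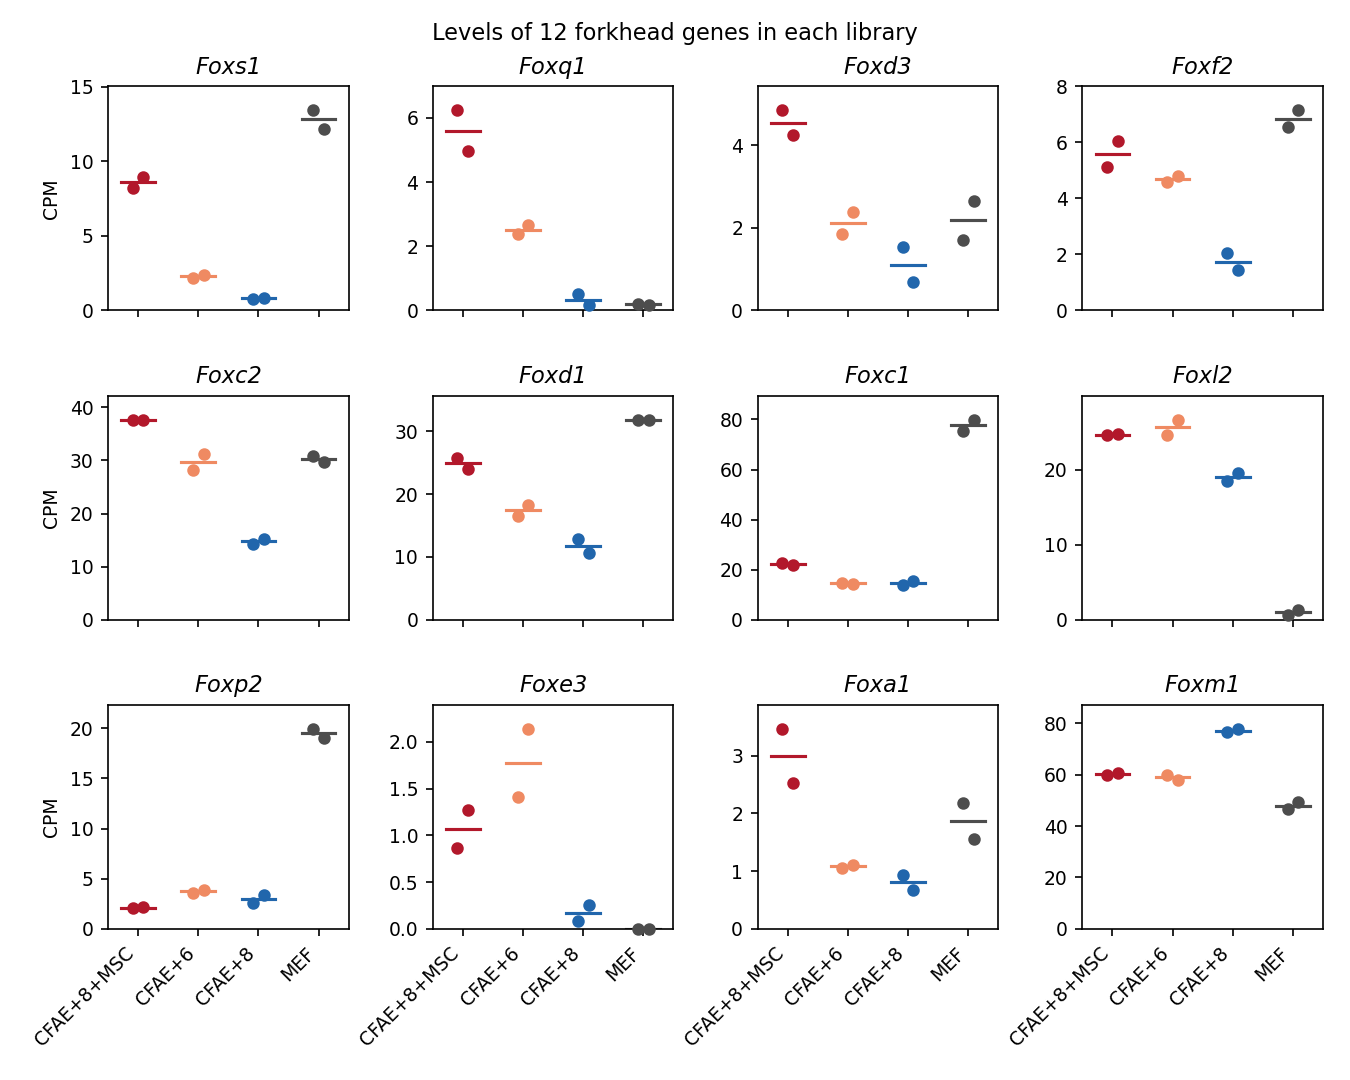
CPM on a linear axis from 0 for 12 forkhead genes (1 panel each) in CFAE+8+MSC, CFAE+6, CFAE+8 and MEF; each point is 1 library and each horizontal line the mean of the 2. The means of Foxs1, Foxq1, Foxf2, Foxc2 and Foxd1 are lowest or near lowest in CFAE+8 and step up through CFAE+6 to CFAE+8+MSC. The step from CFAE+6 to CFAE+8+MSC was not called in Foxf2 (log2 fold change 0.25, adjusted p = 0.586), and DESeq2 did not call it in Foxc2 (0.173). Foxm1 is instead highest in CFAE+8, at 76.5 and 77.9 CPM.

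The mesenchymal genes on chromosomes 8 and 13 followed. Foxc2, a regulator of lymphatic vessels and of mesenchyme, had 37.7 and 37.7 CPM in CFAE+8+MSC, 28.2 and 31.2 CPM in CFAE+6, 14.3 and 15.2 CPM in CFAE+8 and 30.8 and 29.7 CPM in MEF. CFAE+8 stood below the other 3 groups, and the CFAE+6 libraries lay on both sides of the MEF libraries' level. Foxc2 rose by 1.35 (SE 0.11, adjusted p = 3.26e-11) in CFAE+8+MSC and by 1.01 (SE 0.11, adjusted p = 2.78e-08) in CFAE+6, each against CFAE+8. Of the 9 genes above, Foxc2 and Foxd3 were called higher than MEF in CFAE+8+MSC and lower than MEF in CFAE+8. Foxc2 was 0.32 (SE 0.10, adjusted p = 0.00583) in CFAE+8+MSC and -1.03 (SE 0.11, adjusted p = 2.76e-09) in CFAE+8, each against MEF. DESeq2 did not call the rise over MEF (adjusted p = 0.07).

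Foxc1, which acts with Foxc2 in somites, heart and eye, had 22.8 and 21.9 CPM in CFAE+8+MSC, 14.8 and 14.4 CPM in CFAE+6, 13.8 and 15.3 CPM in CFAE+8 and 75.4 and 80.0 CPM in MEF. Every cocktail was far below MEF, and the CFAE+6 and CFAE+8 libraries overlapped. Its change against MEF was -1.80 (SE 0.09, adjusted p = 1.92e-16) in CFAE+8+MSC, -2.41 (SE 0.10, adjusted p = 6.76e-19) in CFAE+6 and -2.42 (SE 0.10, adjusted p = 6.22e-19) in CFAE+8. Foxc1 rose in CFAE+8+MSC against CFAE+8 by 0.62 (SE 0.11, adjusted p = 8.90e-05). The difference between CFAE+6 and CFAE+8 was 0.00, with a 95% interval of -0.24 to 0.25.

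Foxf2, a regulator of gut and palate mesenchyme, had 5.11 and 6.06 CPM in CFAE+8+MSC, 4.58 and 4.79 CPM in CFAE+6, 2.05 and 1.44 CPM in CFAE+8 and 6.56 and 7.14 CPM in MEF. CFAE+8 was lowest and the other 3 groups lay closer together. Foxf2 rose by 1.67 (SE 0.28, adjusted p = 2.58e-05) in CFAE+8+MSC and by 1.42 (SE 0.29, adjusted p = 3.35e-04) in CFAE+6, each against CFAE+8. Against MEF it fell in CFAE+8 by 1.97 (SE 0.27, adjusted p = 3.17e-07). The CFAE+6 value of -0.55 against MEF (adjusted p = 0.0411) lost its call without any 1 of the 4 libraries (adjusted p of 0.0712 to 0.155) and with DESeq2 (0.219). Its paralog Foxf1, a regulator of lung and gut mesenchyme, had 4.42 and 3.35 CPM in CFAE+8+MSC, 3.97 and 2.31 CPM in CFAE+6, 2.39 and 2.04 CPM in CFAE+8 and 6.65 and 10.3 CPM in MEF. Here the MEF libraries stood above all 6 cocktail libraries. Foxf1 changed against MEF by -1.12 (SE 0.27, adjusted p = 5.32e-04) in CFAE+8+MSC, -1.43 (SE 0.27, adjusted p = 4.21e-05) in CFAE+6 and -1.93 (SE 0.29, adjusted p = 1.17e-06) in CFAE+8, and the difference of 0.81 between CFAE+8+MSC and CFAE+8 missed the threshold (adjusted p = 0.0577). It passed without the second CFAE+8+MSC library (0.0471).

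Foxd1, which marks the stromal progenitors of the kidney, had 25.7 and 24.1 CPM in CFAE+8+MSC, 16.6 and 18.3 CPM in CFAE+6, 12.9 and 10.6 CPM in CFAE+8 and 31.7 and 31.9 CPM in MEF. The groups did not overlap, in the order CFAE+8, CFAE+6, CFAE+8+MSC and MEF. Foxd1 rose by 1.08 (SE 0.13, adjusted p = 8.67e-08) in CFAE+8+MSC against CFAE+8. In CFAE+6 against CFAE+8 the rise was 0.57 (SE 0.13, adjusted p = 0.00164), and it lost its call without the second CFAE+8 library (adjusted p = 0.0582). Against MEF, Foxd1 changed by -0.35 (SE 0.11, adjusted p = 0.00739) in CFAE+8+MSC, -0.87 (SE 0.12, adjusted p = 2.15e-07) in CFAE+6 and -1.44 (SE 0.12, adjusted p = 3.07e-11) in CFAE+8. The CFAE+8+MSC call was lost with DESeq2 (adjusted p = 0.0759) and without the second CFAE+8+MSC library (0.0693).

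The genes of other lineages were lower in level. Foxq1, a factor of hair and of epithelia, had 6.24 and 4.97 CPM in CFAE+8+MSC, 2.38 and 2.65 CPM in CFAE+6, 0.512 and 0.170 CPM in CFAE+8 and 0.190 and 0.183 CPM in MEF. The CFAE+8+MSC and CFAE+6 libraries stood above both other groups, whose libraries were within a few counts of 0 (6 and 2 counts in CFAE+8, 2 and 2 in MEF). Foxq1 rose by 4.00 (SE 0.45, adjusted p = 2.75e-08) in CFAE+8+MSC and by 2.85 (SE 0.51, adjusted p = 5.97e-05) in CFAE+6, each against CFAE+8. Without the first CFAE+8 library these values were 4.96 and 3.81, still called. Against MEF the rises were 4.83 (SE 0.52, adjusted p = 1.72e-09) in CFAE+8+MSC and 3.68 (SE 0.59, adjusted p = 2.56e-06) in CFAE+6. An antisense gene, A530084C06Rik, covers 66.1% of the exon length of Foxq1 and was listed at 0 counts in 8 of 8 libraries. The kit does not mark strand and no source used here gives the strand setting of the counting, so the level of Foxq1 is uncertain.

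Foxe3, a regulator of the lens, had 10 and 14 counts in CFAE+8+MSC, 16 and 25 in CFAE+6, 1 and 3 in CFAE+8 and 0 and 0 in MEF, or 0.866 and 1.27 CPM in CFAE+8+MSC, 1.41 and 2.14 CPM in CFAE+6 and 0.0854 and 0.254 CPM in CFAE+8. It was detected in every cocktail library and in neither MEF library. Foxe3 rose in CFAE+6 against CFAE+8 by 3.30 (SE 0.71, adjusted p = 5.37e-04). The rise in CFAE+8+MSC against CFAE+8 was 2.57 (SE 0.78, adjusted p = 0.0106), a call lost without the second CFAE+8+MSC library (adjusted p = 0.102) or the first CFAE+8 library (0.136). Without the second CFAE+8 library these values were 4.21 in CFAE+6 and 3.48 in CFAE+8+MSC. Against a floor of 3 counts over both MEF libraries, Foxe3 was at least 7.59-fold higher in CFAE+8+MSC and at least 12.7-fold higher in CFAE+6 (adjusted p = 1.16e-04 and 5.91e-06).

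Foxd3, a factor of the pluripotent epiblast and of neural crest, had 4.85 and 4.25 CPM in CFAE+8+MSC, 1.85 and 2.40 CPM in CFAE+6, 1.54 and 0.679 CPM in CFAE+8 and 1.71 and 2.66 CPM in MEF. The CFAE+8+MSC libraries stood above all others, and the CFAE+6 and MEF libraries overlapped. Foxd3 rose by 2.03 (SE 0.38, adjusted p = 9.50e-05) in CFAE+8+MSC against CFAE+8, and by 2.73 without the first CFAE+8 library. The CFAE+6 difference from CFAE+8 was 0.94 (adjusted p = 0.102), and 1.63 (adjusted p = 0.0404) without the first CFAE+8 library. Against MEF, Foxd3 was 1.05 (SE 0.34, adjusted p = 0.00790) in CFAE+8+MSC. That call was lost without the first CFAE+8+MSC library (adjusted p = 0.0537), without the first MEF library (0.102) and with DESeq2 (0.0853). In CFAE+8 it was -0.98 (SE 0.42, adjusted p = 0.0454) from MEF, and -1.67 without the first CFAE+8 library. The call was lost without the second CFAE+8 library (0.385) or the second MEF library (0.33) and with DESeq2 (0.159). Foxa1, a pioneer factor that opens chromatin in endoderm, had 3.46 and 2.53 CPM in CFAE+8+MSC, 1.06 and 1.11 CPM in CFAE+6, 0.939 and 0.679 CPM in CFAE+8 and 2.19 and 1.56 CPM in MEF. CFAE+8+MSC stood above the other 3 groups. Foxa1 rose by 1.88 (SE 0.42, adjusted p = 9.08e-04) in CFAE+8+MSC against CFAE+8, and the CFAE+6 difference from CFAE+8 was 0.42 (adjusted p = 0.595). In CFAE+8 it was -1.20 (SE 0.46, adjusted p = 0.0241) from MEF, a call lost without the second CFAE+8 (0.15) or first MEF library (0.172) and with DESeq2 (0.122).

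Marker genes of other cell types moved between the same groups. The summed level of 11 epithelial markers was 46.8 to 48.9 CPM in CFAE+8+MSC (10 detected, Grhl2 at 0), 41.0 CPM in both CFAE+6 libraries (11 detected), 11.5 to 12.5 CPM in CFAE+8 (10 detected, Esrp1 at 0) and 21.3 to 24.9 CPM in MEF (9 detected, Esrp1 and Grhl2 at 0). For 7 mesothelial markers it was 17.5 to 20.01 CPM in CFAE+8+MSC (Lrrn4 at 0), 16.9 to 18.5 CPM in CFAE+6 (Lrrn4 at 0), 3.65 to 3.67 CPM in CFAE+8 (Upk3b and Lrrn4 at 0) and 155 to 158 CPM in MEF (7 detected). Both lists hold Krt19, which averaged 10.4 CPM in CFAE+8+MSC, 10.7 CPM in CFAE+6, 1.57 CPM in CFAE+8 and 11.5 CPM in MEF. Msln averaged 2.87 CPM in CFAE+8+MSC, 1.21 CPM in CFAE+6, 0.809 CPM in CFAE+8 and 101 CPM in MEF. For 9 endothelial markers the sum was 115 to 119 CPM in CFAE+8+MSC (Tie1 and Emcn at 0), 98.3 to 105 CPM in CFAE+6 (Emcn at 0), 63.4 to 71.7 CPM in CFAE+8 (Tie1 at 0) and 23.1 to 24.9 CPM in MEF (Tie1 at 0). Kdr averaged 44.6 CPM in CFAE+8+MSC, 50.3 CPM in CFAE+6, 20.6 CPM in CFAE+8 and 13.9 CPM in MEF. Esam averaged 58.9, 37.2, 36.0 and 1.17 CPM in the same order. Tek (1.06, 0.740, 0.978 and 1.91 CPM in that order) and Emcn (2.24 CPM in MEF) were highest in MEF. The fibroblast list, with all 14 genes detected in each group, summed to 17365 to 17882 CPM in CFAE+8+MSC, 15112 to 15626 CPM in CFAE+6, 16726 to 16791 CPM in CFAE+8 and 41631 to 42977 CPM in MEF. Its members did not all follow the sum. Col1a1 averaged 4324 CPM in CFAE+8+MSC, 3506 CPM in CFAE+6, 4058 CPM in CFAE+8 and 14726 CPM in MEF. Twist1 averaged 978 CPM in CFAE+8+MSC, 1088 CPM in CFAE+6, 994 CPM in CFAE+8 and 103 CPM in MEF. Pdgfra (591, 523, 439 and 361 CPM in that order), Thy1 (1506, 1535, 1100 and 681 CPM), Lum (125, 216, 92.4 and 72.5 CPM) and Fap (17.1, 16.5, 32.8 and 11.3 CPM) were also lowest in MEF. The rest of the list, Col1a1, Col1a2 and Fn1 among them, was highest in MEF. Macrophage markers (11 genes) summed to 21.3 to 22.2 CPM in CFAE+8+MSC, 19.4 to 21.4 CPM in CFAE+6, 37.6 to 38.1 CPM in CFAE+8 (Fcgr1 at 0 in all 3) and 181 to 182 CPM in MEF. Neuronal markers (9 genes) summed to 124 to 136 CPM in CFAE+8+MSC and 118 to 121 CPM in CFAE+6. The sum was 107 to 112 CPM in CFAE+8 and 66.7 to 72.5 CPM in MEF. Rbfox3 was at 0 in all groups but CFAE+6, and Snap25 at 0 in MEF. Tubb3 averaged 59.05 CPM in CFAE+8+MSC, 53.7 CPM in CFAE+6, 68.997 CPM in CFAE+8 and 36.4 CPM in MEF. Stmn2 averaged 61.6, 54.4, 30.8 and 14.5 CPM in the same order. Map2 (2.03, 2.91, 3.45 and 16.96 CPM) and Dcx (0.218, 0.349, 0.0854 and 0.417 CPM) were instead highest in MEF. Extraembryonic endoderm markers (8 genes, Ttr at 0 in each group) summed to 123 to 132 CPM in CFAE+8+MSC, 125 to 134 CPM in CFAE+6, 112 to 114 CPM in CFAE+8 and 213 to 226 CPM in MEF. Of that sum Dab2 made up 53.8 CPM in CFAE+8+MSC, 49.7 CPM in CFAE+6, 44.3 CPM in CFAE+8 and 201 CPM in MEF, whereas Sox7 averaged 32.5 CPM in CFAE+8+MSC, 36.6 CPM in CFAE+6, 41.5 CPM in CFAE+8 and 1.91 CPM in MEF. Their part in the forkhead values was not tested. In bulk RNA, fewer cells of a type and less RNA per cell cannot be told apart.

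In CFAE+6 against CFAE+8, which differ by E-616452 in place of A-83-01, 8 of the 28 tested forkhead genes (28.6%) rose and 2 (7.14%) fell, where 14.3% of all genes tested rose and 12.3% fell. The 8 were Foxe3, Foxq1, Foxs1, Foxf2, Foxc2, Foxd1, Foxl2 and Foxk1, and the 2 were Foxm1 and Foxn3, a repressor linked to the DNA damage checkpoint. The median log2 fold change was 0.27, beside 0.00088 over all genes tested. This comparison and the preceding one share the CFAE+8 libraries, and their doses are not known, so their values are given side by side only. DESeq2 called 6 higher and 1 lower; it did not call Foxl2 (adjusted p = 0.0951), Foxk1 (0.0975) or Foxn3 (0.18).

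Set directly against each other, CFAE+8+MSC was higher than CFAE+6 in 9 of the 28 tested forkhead genes (32.1%) and lower in 0, where 6.21% of all genes tested were higher and 4.27% lower. At an unadjusted p under 0.05, 10 were higher and 1 lower; DESeq2 called 5 higher and 0 lower, gave Foxa1, Foxd3 and Foxq1 no adjusted p, and did not call Foxc2 (0.173). Foxs1 differed most, by 1.89 (SE 0.24, adjusted p = 1.15e-06), and Foxc1 by 0.61 (SE 0.11, adjusted p = 3.86e-04). These 2 calls were kept without any 1 of the 4 libraries. The other 7 were Foxa1 at 1.46 (SE 0.40, adjusted p = 0.0158), Foxq1 at 1.15 (SE 0.31, adjusted p = 0.0140), Foxd3 at 1.09 (SE 0.34, adjusted p = 0.0331), and Foxd1, Foxp1, Foxc2 and Foxk1 at 0.28 to 0.51. Each of these 7 lost its call without at least 1 library. Foxd3 lost it without any 1 of the 4 libraries, and Foxa1 and Foxq1 without any but the second CFAE+8+MSC library. Foxd1 lost it without the first library of either group (0.0581 and 0.0535), Foxp1 without the first CFAE+8+MSC (0.0709) or second CFAE+6 library (0.118), Foxk1 without the second CFAE+6 library (0.0725), and Foxc2 without any of the other 3 (0.0878 to 0.172). Foxe3 was lower in CFAE+8+MSC than in CFAE+6 by a difference that missed the threshold (-0.74, 95% interval -1.76 to 0.27), and Foxf2 and Foxl2 did not pass it either, with 95% intervals of -0.24 to 0.74 and -0.30 to 0.19.

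Against MEF, more of the tested forkhead genes fell than rose in each of the 3 cocktails. In CFAE+8+MSC, 10 of the 28 rose (35.7%, beside 31.9% of all genes tested) and 13 fell (46.4%, beside 32.2%). In CFAE+6, 5 rose (17.9%, beside 31.6%) and 12 fell (42.9%, beside 31.5%). In CFAE+8, 5 rose (17.9%, beside 30.8%) and 18 fell (64.3%, beside 31.3%). Median log2 fold changes of the 28 were -0.32 in CFAE+8+MSC, -0.52 in CFAE+6 and -0.87 in CFAE+8, the same with Foxe3 at its bound, beside medians over all genes tested of 0.011, 0.018 and 0.012. The 3 comparisons share the MEF libraries. The summed level of the 43 genes was 931 ± 29.3 CPM in CFAE+8+MSC, 831 ± 22.0 CPM in CFAE+6, 833 ± 10.4 CPM in CFAE+8 and 1055 ± 35.004 CPM in MEF (SD, n = 2 each). Mitochondrial genes took 1.96% to 2.21% of the counts in cocktail libraries and 1.21% to 1.24% in MEF libraries.

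**Figure D3:**
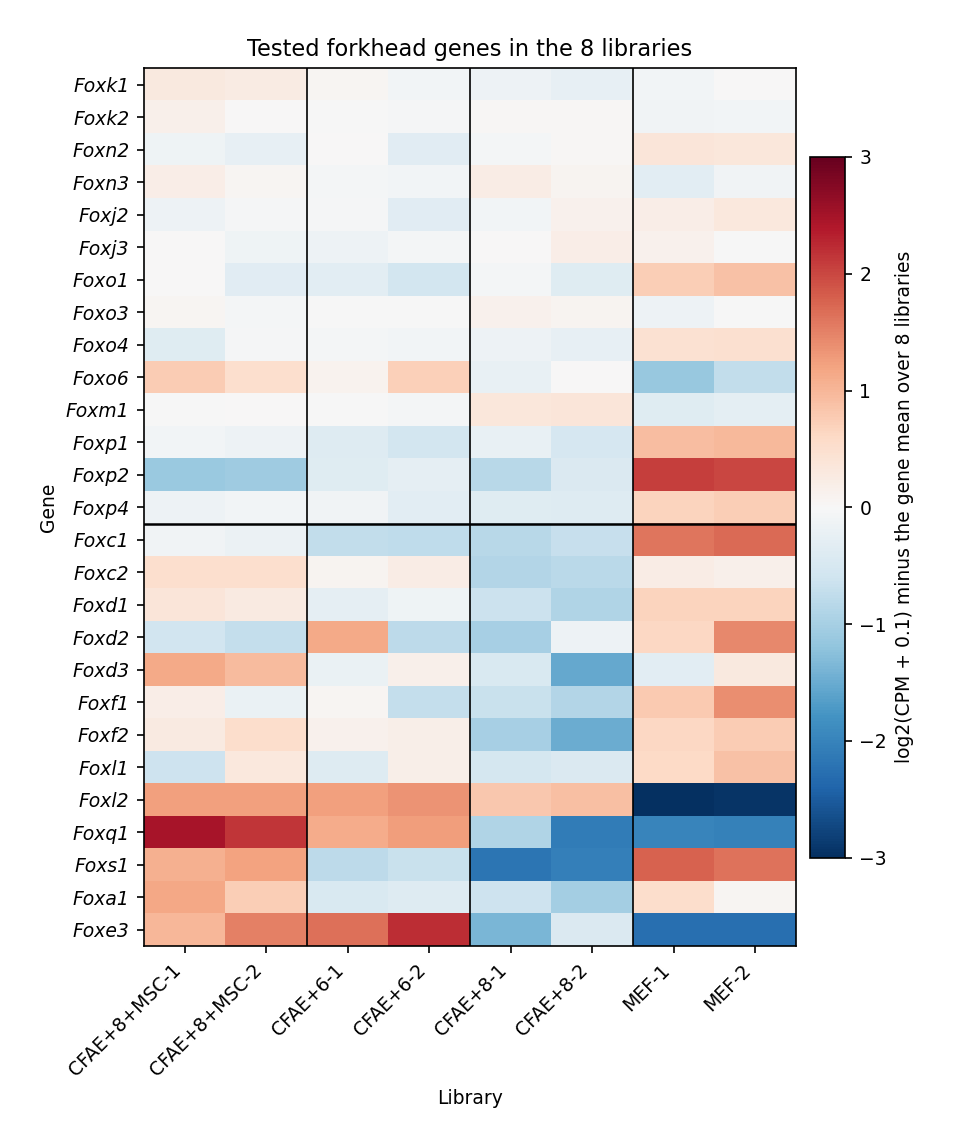
Log2(CPM + 0.1) minus the mean of the gene over the 8 libraries, for 27 of the tested forkhead genes (rows) in each library (columns), with the colour scale ending at -3 and 3; the line divides 14 genes of the Foxj, Foxk, Foxm, Foxn, Foxo and Foxp subfamilies from 13 of other subfamilies. Foxl2 is low in both MEF libraries and high in the 6 cocktail libraries, Foxp2 and Foxc1 show the reverse, and Foxq1, Foxs1 and Foxd3 are lowest or close to lowest in the CFAE+8 libraries.

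Foxl2, which maintains ovarian granulosa cells, was the forkhead gene that rose most against MEF in CFAE+8. It had 24.6 and 24.8 CPM in CFAE+8+MSC, 24.7 and 26.7 CPM in CFAE+6, 18.5 and 19.6 CPM in CFAE+8 and 0.665 and 1.28 CPM in MEF. All 6 cocktail libraries stood far above both MEF libraries. Its rise over MEF was 4.64 (SE 0.22, adjusted p = 1.74e-17) in CFAE+8+MSC, 4.70 (SE 0.22, adjusted p = 1.03e-17) in CFAE+6 and 4.27 (SE 0.23, adjusted p = 3.57e-16) in CFAE+8. Against CFAE+8 the rises were 0.37 (SE 0.12, adjusted p = 0.0229) in CFAE+8+MSC and 0.43 (SE 0.12, adjusted p = 0.00916) in CFAE+6. The first of these calls was lost without any 1 of the 4 libraries (adjusted p of 0.0596 to 0.135), the second without the second CFAE+6 library (0.0895) or the first CFAE+8 library (0.0802), and both with DESeq2. Foxl2os, a noncoding transcript on the opposite strand whose exons share 12 bases with Foxl2, had 8.92 and 10.4 CPM in CFAE+8+MSC, 12.1 and 11.6 CPM in CFAE+6, 7.94 and 8.48 CPM in CFAE+8 and 0.570 and 0.733 CPM in MEF. It rose over MEF by 3.86 in CFAE+8+MSC, 4.15 in CFAE+6 and 3.63 in CFAE+8 (adjusted p of 1.70e-12, 1.52e-13 and 1.21e-11). Foxl2 lies on chromosome 9, 98955288 to 98958543, plus strand, and Foxl2os on chromosome 9, 98949781 to 98955299, minus strand.

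The largest fall against MEF in CFAE+8+MSC was that of Foxp2, a factor of brain and lung development, which had 2.08 and 2.17 CPM in CFAE+8+MSC, 3.61 and 3.85 CPM in CFAE+6, 2.56 and 3.39 CPM in CFAE+8 and 19.96 and 19.1 CPM in MEF. Both MEF libraries stood above all cocktail libraries. Foxp2 changed by -3.19 (SE 0.22, adjusted p = 1.01e-13) in CFAE+8+MSC, -2.38 (SE 0.19, adjusted p = 7.53e-12) in CFAE+6 and -2.71 (SE 0.20, adjusted p = 9.74e-13) in CFAE+8. Foxp1, a repressor used in lung, heart and lymphocytes, had 54.6 and 51.7 CPM in CFAE+8+MSC, 44.0 and 39.0 CPM in CFAE+6, 49.1 and 40.6 CPM in CFAE+8 and 110.3 and 113 CPM in MEF. It changed by -1.07 (SE 0.08, adjusted p = 9.30e-13) in CFAE+8+MSC, -1.43 (SE 0.08, adjusted p = 2.24e-15) in CFAE+6 and -1.32 (SE 0.08, adjusted p = 1.24e-14) in CFAE+8. Foxp4, of the same subfamily, had 55.3 and 58.2 CPM in CFAE+8+MSC, 56.9 and 49.0 CPM in CFAE+6, 47.6 and 47.2 CPM in CFAE+8 and 97.1 and 103 CPM in MEF. It changed by -0.82 (SE 0.08, adjusted p = 1.01e-10) in CFAE+8+MSC, -0.92 (SE 0.08, adjusted p = 9.04e-12) in CFAE+6 and -1.08 (SE 0.08, adjusted p = 3.46e-13) in CFAE+8. MEF libraries were thus above the cocktail libraries for all 3 tested Foxp genes. Against CFAE+8, the rises in CFAE+8+MSC were 0.26 for Foxp4 (adjusted p = 0.0150) and 0.25 for Foxp1 (adjusted p = 0.0322), and DESeq2 called neither (0.0771 and 0.131). The Foxp4 call was also lost without the second CFAE+8+MSC library (0.101) or either CFAE+8 library (0.0643 and 0.0788), and the Foxp1 call without the first CFAE+8+MSC (0.17) or second CFAE+8 library (0.465).

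The FOXO genes split. Foxo1, which activates genes of fasting metabolism, had 14.6 and 11.6 CPM in CFAE+8+MSC, 11.6 and 9.93 CPM in CFAE+6, 13.999 and 11.3 CPM in CFAE+8 and 24.4 and 26.7 CPM in MEF. Its MEF libraries stood highest, and the cocktails overlapped one another. Foxo1 changed against MEF by -0.96 (SE 0.14, adjusted p = 1.17e-06) in CFAE+8+MSC, -1.24 (SE 0.15, adjusted p = 1.94e-08) in CFAE+6 and -1.01 (SE 0.14, adjusted p = 4.78e-07) in CFAE+8. Foxo4 fell with it, by 0.67 in CFAE+8+MSC, by 0.54 in CFAE+6 and by 0.67 in CFAE+8 (adjusted p of 8.24e-06, 1.04e-04 and 7.44e-06). Foxo3, the FOXO gene with the highest level per length, had 117 and 107 CPM in CFAE+8+MSC, 111 and 111 CPM in CFAE+6, 122 and 118 CPM in CFAE+8 and 101 and 110.5 CPM in MEF. Only its CFAE+8 value against MEF was called, at 0.19 (SE 0.06, adjusted p = 0.0123), and that was lost with DESeq2 (0.0659) and without the first CFAE+8 (0.0755) or first MEF library (0.175). Foxo6, known from the brain, had 3.81 and 3.17 CPM in CFAE+8+MSC, 2.38 and 3.68 CPM in CFAE+6, 1.88 and 2.21 CPM in CFAE+8 and 0.950 and 1.28 CPM in MEF. It was lowest in MEF and rose by 1.63 (SE 0.38, adjusted p = 4.41e-04) in CFAE+8+MSC and by 1.43 (SE 0.39, adjusted p = 0.00195) in CFAE+6, which was 1.08 (adjusted p = 0.0561) without the second CFAE+6 library. None of the 4 FOXO genes was called in any comparison among the cocktails.

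Foxm1, which drives transcription in G2 and mitosis, had 60.02 and 60.7 CPM in CFAE+8+MSC, 59.9 and 58.0 CPM in CFAE+6, 76.5 and 77.9 CPM in CFAE+8 and 46.5 and 49.3 CPM in MEF. It was lowest in MEF and highest in CFAE+8, with CFAE+8+MSC and CFAE+6 close together between them. Foxm1 rose over MEF by 0.33 (SE 0.08, adjusted p = 3.19e-04) in CFAE+8+MSC, 0.30 (SE 0.08, adjusted p = 9.63e-04) in CFAE+6 and 0.69 (SE 0.07, adjusted p = 2.17e-09) in CFAE+8. Against CFAE+8 it fell by 0.35 in CFAE+8+MSC (SE 0.07, adjusted p = 2.49e-04) and by 0.39 in CFAE+6 (SE 0.07, adjusted p = 9.92e-05). In a test against a 1.2-fold change, neither fall passed (adjusted p of 0.174 in CFAE+8+MSC and 0.0971 in CFAE+6), nor did the rises over MEF in CFAE+8+MSC (0.118) and CFAE+6 (0.222).

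Genes known as FOXM1 targets, 24 mitotic and cell cycle genes that were all tested, were higher than MEF in 18 cases in CFAE+8+MSC, 18 in CFAE+6 and 20 in CFAE+8, and lower in 0 in each; at an unadjusted p under 0.05 none was lower, and DESeq2 called none lower. Their medians against MEF were 0.65 in CFAE+8+MSC, 0.60 in CFAE+6 and 0.77 in CFAE+8. Over all genes tested, 31.9% rose and 32.2% fell against MEF in CFAE+8+MSC, 31.6% rose and 31.5% fell in CFAE+6, and 30.8% rose and 31.3% fell in CFAE+8, with medians of 0.011 in CFAE+8+MSC, 0.018 in CFAE+6 and 0.012 in CFAE+8. Top2a, the topoisomerase of mitotic chromosomes, had 268 ± 0.461 CPM in CFAE+8+MSC, 239 ± 4.61 CPM in CFAE+6, 311 ± 0.575 CPM in CFAE+8 and 135 ± 3.77 CPM in MEF (SD, n = 2 each). Against CFAE+8, 9 fell in CFAE+8+MSC and 11 in CFAE+6, and 0 rose in either, also at an unadjusted p under 0.05 and with DESeq2, which called 5 and 6 lower. The median of the 24 was -0.17 in CFAE+8+MSC and -0.22 in CFAE+6, and of all genes tested 13.8% fell in CFAE+8+MSC and 12.3% in CFAE+6, with medians of -0.0045 and 0.00088. Kif23, a kinesin of cell division, changed by -0.66 (SE 0.09, adjusted p = 2.17e-06) in CFAE+8+MSC and by -0.74 (SE 0.09, adjusted p = 4.99e-07) in CFAE+6, and Cenpa, the centromeric histone, by -0.42 (SE 0.07, adjusted p = 3.09e-05) and -0.40 (SE 0.07, adjusted p = 6.10e-05). CFAE+8+MSC differed from CFAE+6 in 2 of the 24, Cenpe and Top2a, both higher, where 6.21% of all genes tested were higher.

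**Figure D4:**
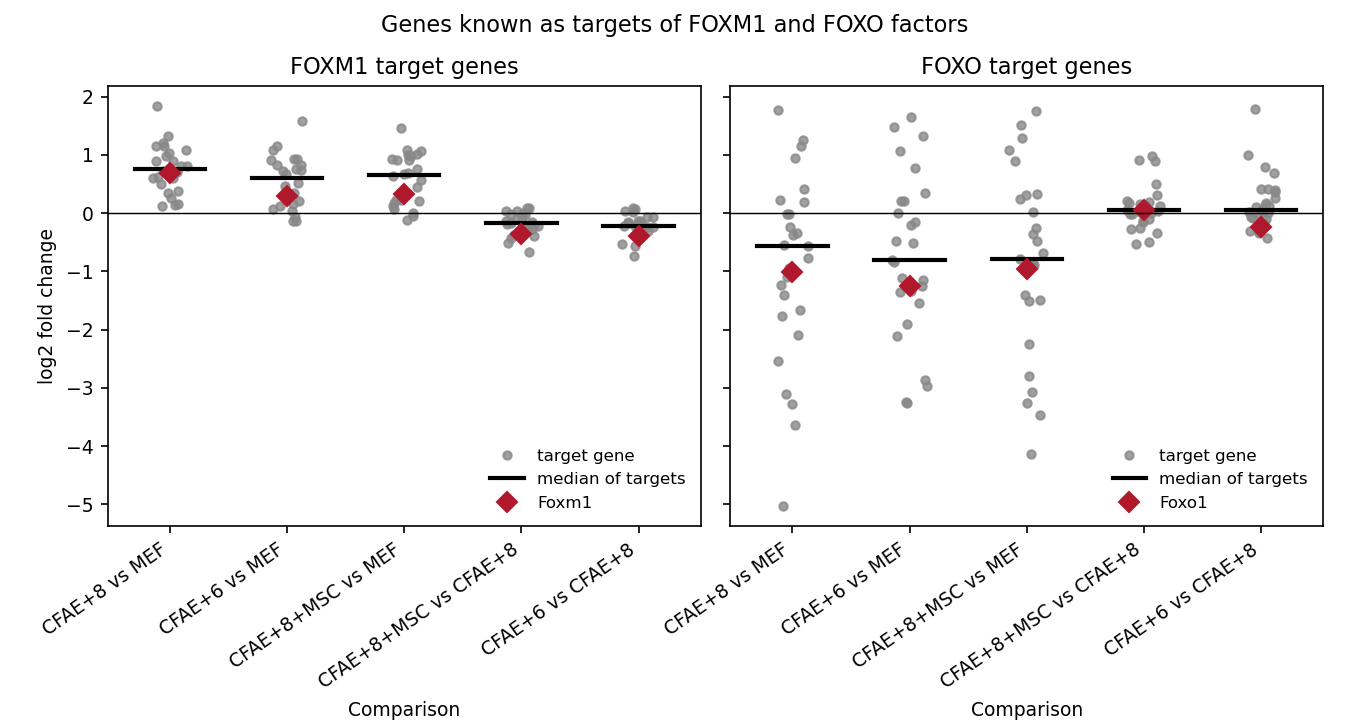
Log2 fold change (vertical axis) of each tested gene known as a target of FOXM1 (24 genes, left) or of FOXO factors (27 genes, right) in 5 comparisons (horizontal axis), with the median as a bar and Foxm1 or Foxo1 as a diamond; the first 3 comparisons share the MEF libraries and the last 2 the CFAE+8 libraries. FOXM1 targets lie mostly above 0 against MEF and mostly below 0 against CFAE+8, and FOXO targets spread to both sides of 0 against MEF, with 18 called lower and 7 higher in CFAE+8.

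Of 32 genes known as FOXO targets, 27 were tested. Against MEF, 8 rose and 18 fell in CFAE+8+MSC, 8 rose and 16 fell in CFAE+6, and 7 rose and 18 fell in CFAE+8, with medians of -0.78 in CFAE+8+MSC, -0.80 in CFAE+6 and -0.56 in CFAE+8. The shares of all genes tested that rose and fell were 31.9% and 32.2% in CFAE+8+MSC, 31.6% and 31.5% in CFAE+6, and 30.8% and 31.3% in CFAE+8, with medians of 0.011, 0.018 and 0.012. Txnip, an inhibitor of thioredoxin and glucose uptake, changed by -3.26 (SE 0.14, adjusted p = 1.32e-18) in CFAE+8+MSC, -3.25 (SE 0.14, adjusted p = 1.21e-18) in CFAE+6 and -3.27 (SE 0.14, adjusted p = 1.03e-18) in CFAE+8. Cited2, a transcriptional coregulator, and Gabarapl1, an autophagy gene, also fell in each, and changed in CFAE+8+MSC by -1.51 (SE 0.07, adjusted p = 2.51e-18) and -2.24 (SE 0.09, adjusted p = 4.16e-19). Sesn3, a stress-response gene, went the other way, at 1.08 (SE 0.06, adjusted p = 2.86e-15) in CFAE+8+MSC and 1.33 (SE 0.06, adjusted p = 1.72e-17) in CFAE+6. Against CFAE+8, 2 rose and 1 fell in CFAE+8+MSC, and 4 rose and 4 fell in CFAE+6, with medians of 0.053 and 0.063. Over all genes tested, 15.6% rose and 13.8% fell in CFAE+8+MSC and 14.3% rose and 12.3% fell in CFAE+6, with medians of -0.0045 and 0.00088. Irs2, an adaptor of the insulin receptor, was among the rises, at 0.91 (SE 0.08, adjusted p = 1.99e-10) in CFAE+8+MSC and 0.79 (SE 0.08, adjusted p = 5.17e-09) in CFAE+6. Between CFAE+8+MSC and CFAE+6, 3 were higher and 3 lower, beside 6.21% higher and 4.27% lower over all genes tested.

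Upstream of FOXO, 29 genes of the insulin, PI3K and AKT pathway were tested. Against MEF, 9 rose and 14 fell in CFAE+8+MSC, 7 rose and 13 fell in CFAE+6, and 9 rose and 11 fell in CFAE+8, with medians of -0.089 in CFAE+8+MSC, -0.077 in CFAE+6 and -0.081 in CFAE+8. In the same comparisons 31.9%, 31.6% and 30.8% of all genes tested rose and 32.2%, 31.5% and 31.3% fell, with medians of 0.011, 0.018 and 0.012. Igf1r, the receptor of insulin-like growth factors, changed by -1.30 (SE 0.05, adjusted p = 1.31e-18) in CFAE+8+MSC, -1.73 (SE 0.06, adjusted p = 2.21e-21) in CFAE+6 and -1.77 (SE 0.06, adjusted p = 1.33e-21) in CFAE+8. Sgk1, a kinase that also phosphorylates FOXO factors, rose by 1.38 (SE 0.06, adjusted p = 7.54e-19) in CFAE+8+MSC. Against CFAE+8, 8 rose and 6 fell in CFAE+8+MSC, and 5 rose and 2 fell in CFAE+6, with medians of 0.029 and -0.052. Of all genes tested, 15.6% and 14.3% rose and 13.8% and 12.3% fell. Igf2, a growth factor of the embryo, was 156 ± 6.48 CPM in CFAE+8+MSC, 147 ± 8.47 CPM in CFAE+6, 57.4 ± 3.33 CPM in CFAE+8 and 211 ± 13.2 CPM in MEF (SD, n = 2 each). It rose by 1.44 (SE 0.07, adjusted p = 1.86e-16) in CFAE+8+MSC and by 1.36 (SE 0.07, adjusted p = 1.33e-15) in CFAE+6, each against CFAE+8. Between CFAE+8+MSC and CFAE+6, 3 were higher and 2 lower, against 6.21% and 4.27% of all genes tested.

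Hedgehog signals are known to induce Foxf1 and Foxf2 in gut mesenchyme, and all 18 genes listed for that pathway were tested. Against MEF, 11 rose and 5 fell in CFAE+8+MSC, 11 rose and 5 fell in CFAE+6, and 9 rose and 5 fell in CFAE+8, with medians of 0.39 in CFAE+8+MSC, 0.39 in CFAE+6 and 0.53 in CFAE+8. Of all genes tested, 31.9%, 31.6% and 30.8% rose and 32.2%, 31.5% and 31.3% fell in those comparisons, with medians of 0.011, 0.018 and 0.012. Gli2, a transcription factor of the pathway, rose by 2.02 (SE 0.07, adjusted p = 2.23e-21) in CFAE+8+MSC, 2.03 (SE 0.07, adjusted p = 1.93e-21) in CFAE+6 and 1.91 (SE 0.07, adjusted p = 9.92e-21) in CFAE+8, and Ptch1, the hedgehog receptor and a target of the pathway, by 2.03 (SE 0.09, adjusted p = 8.06e-18), 1.81 (SE 0.09, adjusted p = 1.69e-16) and 1.93 (SE 0.09, adjusted p = 3.33e-17) in the same order. Against CFAE+8, 5 rose and 6 fell in CFAE+8+MSC, and 5 rose and 5 fell in CFAE+6, with medians of 0.086 and 0.017. The shares over all genes tested were 15.6% and 14.3% that rose and 13.8% and 12.3% that fell. Hhip, a hedgehog-binding inhibitor and target, rose by 0.75 (SE 0.11, adjusted p = 3.57e-06) in CFAE+8+MSC. The 18 genes ran from -0.98 to 4.72 in CFAE+8+MSC against CFAE+8, and from -2.66 to 4.24 in CFAE+8 against MEF. Between CFAE+8+MSC and CFAE+6, 0 were higher and 1, Boc, a hedgehog coreceptor, was lower, where 6.21% of all genes tested were higher and 4.27% lower; at an unadjusted p under 0.05, 5 were higher and 4 lower, and DESeq2 called 0 lower.

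Levels can be compared between genes only per length. Foxk2 had the highest level of all forkhead genes in each group, at 27.4 ± 1.72 RPKM (CPM per kilobase of exon) in CFAE+8+MSC, 25.3 ± 0.258 in CFAE+6, 26.6 ± 0.131 in CFAE+8 and 24.2 ± 0.312 in MEF (SD, n = 2 each). It had 151 and 138 CPM in CFAE+8+MSC, 134 and 132 CPM in CFAE+6, 139 and 140.2 CPM in CFAE+8 and 126 and 128 CPM in MEF, a narrow range. Its change against MEF was 0.18 (SE 0.06, adjusted p = 0.00771) in CFAE+8+MSC and 0.14 (SE 0.06, adjusted p = 0.0444) in CFAE+8, and the CFAE+8 value lost its call without any 1 of the 4 libraries and with DESeq2 (0.152). The CFAE+8+MSC call was lost without the first library of that group (0.139). After Foxk2 came Foxp4 in MEF (20.3 ± 0.890 RPKM), Foxk1 in CFAE+8+MSC (17.4 ± 0.333 RPKM) and Foxo3 in CFAE+6 and CFAE+8 (14.7 ± 0.0114 and 15.9 ± 0.303 RPKM). In CFAE+6 the level of Foxo3 lay within the spread of Foxk1 (14.3 ± 0.938 RPKM). Foxl2 reached 7.58 ± 0.0400 RPKM in CFAE+8+MSC and 7.89 ± 0.439 RPKM in CFAE+6, beside 0.299 ± 0.134 RPKM in MEF. Foxk1 rose against CFAE+8 by 0.48 (SE 0.06, adjusted p = 7.30e-07) in CFAE+8+MSC and by 0.19 (SE 0.06, adjusted p = 0.0250) in CFAE+6, the CFAE+6 call being lost without the first CFAE+6 or second CFAE+8 library (0.238 each).

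**Figure D5:**
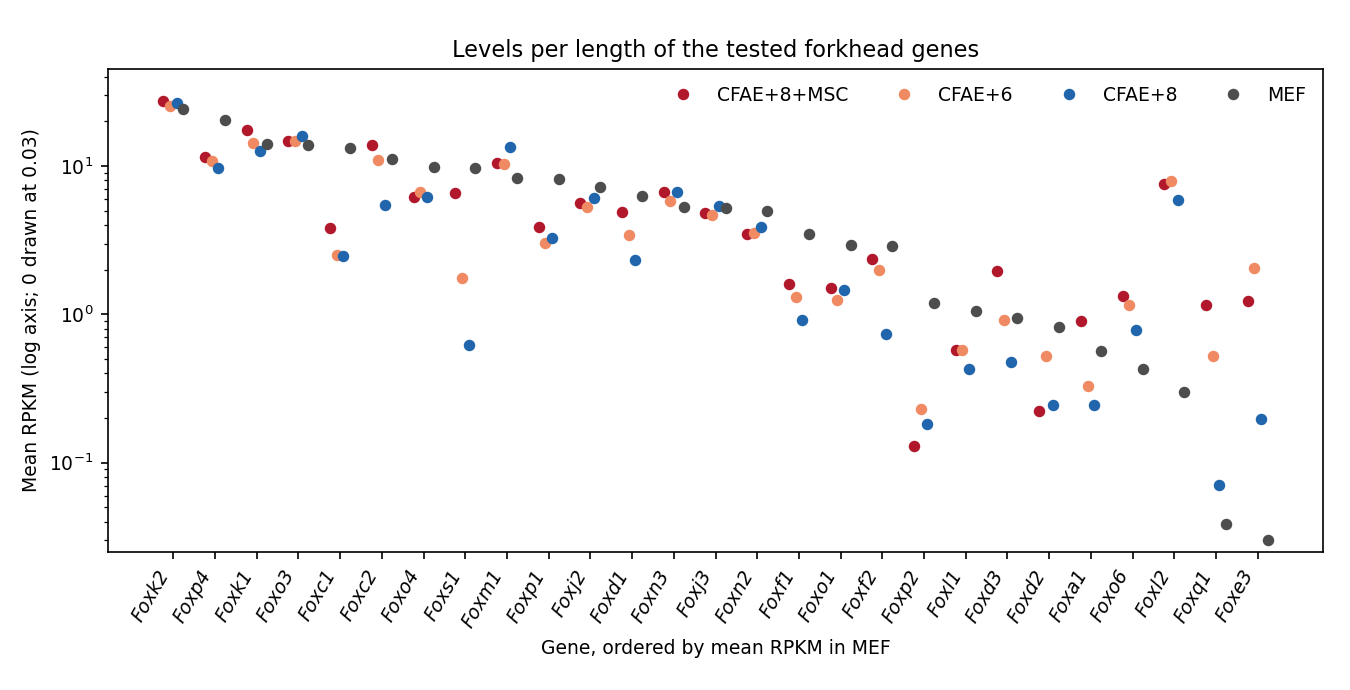
Mean RPKM of 2 libraries (vertical axis, log scale, with the 0 of Foxe3 in MEF drawn below all other points) for 27 of the tested forkhead genes (horizontal axis, ordered by their level in MEF) in CFAE+8+MSC, CFAE+6, CFAE+8 and MEF. Foxk2 is highest in every group, at 24.2 to 27.4 RPKM, while Foxs1, Foxl2, Foxq1 and Foxe3 spread most between groups.

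In Foxn3, Foxn2, Foxj2 and Foxj3 no called change exceeded 0.53 in size. Foxn3 had 80.1 and 72.4 CPM in CFAE+8+MSC, 67.3 and 65.7 CPM in CFAE+6, 81.2 and 73.4 CPM in CFAE+8 and 56.2 and 64.9 CPM in MEF. The level in CFAE+8 and CFAE+8+MSC was above MEF, by 0.33 (SE 0.08, adjusted p = 5.68e-04) in CFAE+8+MSC and 0.35 (SE 0.08, adjusted p = 2.97e-04) in CFAE+8. Foxn3 in CFAE+6 fell against CFAE+8 by 0.22 (adjusted p = 0.0368), a call lost without either CFAE+6 library (0.0757 and 0.13) or the first CFAE+8 library (0.356). Foxn2 fell against MEF in every cocktail, by 0.53 in CFAE+8+MSC, by 0.50 in CFAE+6 and by 0.36 in CFAE+8. Foxj2 fell in CFAE+8+MSC and CFAE+6, by 0.35 and by 0.45, the CFAE+8+MSC call being lost without the first CFAE+8+MSC (0.0636) or second MEF library (0.0744), and Foxj3 was called in no comparison.

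Forkhead genes lie in 3 close groups, and neighbours did not all move alike. On chromosome 8, Foxf1 (121084386 to 121088144), Foxc2 (121116171 to 121118895) and Foxl1 (121127940 to 121130644) are separated by 28.03 and 9.04 kb. In CFAE+8+MSC against CFAE+8, Foxc2 rose by 1.35, while Foxf1 at 0.81 and Foxl1, a marker of gut subepithelial mesenchyme, at 0.43 (adjusted p = 0.524) did not pass the test. In CFAE+8 against MEF, Foxl1 was -1.30 (SE 0.41, adjusted p = 0.00743), a call lost without the second MEF library (0.066) and with DESeq2 (0.0705). Fendrr, the noncoding transcript beside Foxf1, had 4 and 6 counts in CFAE+8+MSC, 2 and 2 in CFAE+6, 3 and 2 in CFAE+8 and 10 and 8 in MEF, too few to test. On chromosome 13, Foxq1 (31556134 to 31560976), Foxf2 (31625816 to 31631403) and Foxc1 (31806633 to 31812476) are separated by 64.84 and 175.2 kb, and all 3 rose in CFAE+8+MSC against CFAE+8. Against MEF in CFAE+8+MSC, Foxq1 rose by 4.83, Foxc1 fell by 1.80 and Foxf2 at -0.30 was not called. On chromosome 4, Foxd2 (114906282 to 114908873) and Foxe3 (114925147 to 114926013) are 16.27 kb apart. Foxd2 had 0.606 and 0.543 CPM in CFAE+8+MSC, 2.20 and 0.514 CPM in CFAE+6, 0.427 and 0.848 CPM in CFAE+8 and 1.52 and 2.75 CPM in MEF. It was not called among cocktails, though without the second CFAE+6 library CFAE+6 was above CFAE+8 by 1.77 (adjusted p = 0.0358), and against MEF it was -1.88 (SE 0.59, adjusted p = 0.00667) in CFAE+8+MSC and -1.73 (SE 0.58, adjusted p = 0.0101) in CFAE+8, both lost with DESeq2 (0.0544 and 0.0751) and without the second MEF library (0.138 and 0.179). The CFAE+8 call was also lost without the first CFAE+8 library (0.109). The CFAE+6 libraries differed, and without the first of them the change against MEF was -2.03 (adjusted p = 0.0179). Foxd2os, between Foxd2 and Foxe3, had 2.08 and 1.09 CPM in CFAE+8+MSC, 1.15 and 1.80 CPM in CFAE+6, 1.11 and 0.763 CPM in CFAE+8 and 1.52 and 2.20 CPM in MEF and was called in no comparison.

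The 12 genes with counts but too few to test were Foxj1, Foxn1, Foxp3, Foxa3, Foxe1, Foxi3, Foxb2, Foxd4, Foxr2, Foxi1, Foxn4 and Foxi2, with at most 28 counts over all 8 libraries. Foxj1, the regulator of motile cilia, had 3 and 2 counts in CFAE+8+MSC, 5 and 4 in CFAE+6, 8 and 4 in CFAE+8 and 1 and 1 in MEF. The ratio of CFAE+8 to MEF was 5.47, with an exact 95% counting interval of 1.22 to 50.3. Foxn1, known from thymic epithelium and hair, had 6 and 5 counts in CFAE+8+MSC and 1 and 1 in CFAE+8, a ratio of 5.72 with an interval of 1.25 to 53.1. These intervals cover counting error only and are not adjusted for the number of ratios formed. Every other interval computed for the untested genes included a ratio of 1, such as 0.867 to 39.8 for Foxj1 in CFAE+6 against MEF. Foxb1, Foxh1 and Foxr1 had 0 counts in all 8 libraries, and no transcript was detected for them at this depth, where 3 counts over a group is the limit that a count of 0 allows.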

How the data were processed

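Bulk RNA of 8 libraries was sequenced, 2 in each of 4 media, and groups follow the sample titles. The deposited values are whole-number counts of reads per gene for 54532 genes, which the authors made with featureCounts of the Subread package on mm10, per the submitters' processing notes. No source used here gives the aligner, the annotation release or the strand setting. All count columns belong to these libraries, and the table holds 0 columns of other samples.

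Counts were tested with edgeR 4.0.16 (limma 3.58.1, R 4.3.3): the filterByExpr filter (15470 genes, 99.85% of counts), TMM scaling, 1 mean per group over the 8 libraries, the quasi-likelihood F test with 4 residual degrees of freedom, and Benjamini-Hochberg adjustment over all genes tested. The standard error is the size of the unshrunk log2 fold change divided by the root of F. The 95% intervals of fold changes are centred on that unshrunk estimate. Printed fold changes are the shrunk values that edgeR reports, which can differ from it at low counts. RPKM divides CPM by the deposited exon length. Libraries held 10958430 to 11913143 counts. Folds against a group at 0 use a floor of 3 counts over the group. Ratios of untested genes have exact 95% intervals, which cover counting error only.

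Values in every library are given for members at least 1.5-fold changed and called against CFAE+8, the 8 largest called rises and falls against MEF, and the highest per length; for other lists, up to 4 genes per comparison with the smallest adjusted p. Members and lists (FOXO targets, FOXM1 targets, PI3K and AKT genes, hedgehog genes and markers of fibroblasts, macrophages, endothelium, epithelium, mesothelium, neurons and extraembryonic endoderm) were chosen with earlier results of these data known. Alternatives were other scalings, filters and samples, DESeq2 1.42.0, a test against a 1.2-fold change, a replicate block and leaving out each library. Promoters came from RefSeq and exon overlaps from GENCODE M21. Some genes of the family are not reported here by name.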

Additional observations from a re-analysis of the deposited data

How the results depend on the processing

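Over 28 genes and 6 comparisons, 96 of 168 results were called, and no call reversed under any alternative run. Of the 96, the call was kept in 95 with DESeq2 size factors, 93 with upper-quartile scaling, 94 with no filter, 96 with a stricter filter, 65 in a test against a 1.2-fold change, 71 of 92 with DESeq2's Wald test, 93 of 94 with only the 2 groups compared, and 316 of 384 over all left-out libraries. The medians of all genes stayed within 0.061 of 0 under each scaling. The cause of the changes below was not tested.

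Deviations from the group mean correlated by -0.021 to 0.0512 between libraries with the same replicate number. These values gave no sign of pairing by number, but they cannot show how the libraries were made. With the replicate block all 96 calls were kept and 1 was added, Foxj2 in CFAE+8 against MEF (adjusted p = 0.0498), so 19 forkhead genes were lower there.

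Counts that moved by over 1.5 times follow. With DESeq2 size factors, 4 FOXO targets were higher in CFAE+8+MSC than in CFAE+8. With upper-quartile scaling, 1 forkhead gene was lower in CFAE+8+MSC than in CFAE+6 (Foxp2). With no filter, 1 PI3K gene was lower in CFAE+6 than in CFAE+8.

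With DESeq2's Wald test, forkhead genes came to 3 higher in CFAE+8 against MEF, 1 lower in CFAE+6 against CFAE+8 and 5 higher in CFAE+8+MSC against CFAE+6. FOXM1 targets came to 5 lower in CFAE+8+MSC and 6 lower in CFAE+6, each against CFAE+8, and 1 higher in CFAE+8+MSC against CFAE+6. PI3K genes came to 4 higher in CFAE+8+MSC and 1 lower in CFAE+6, each against CFAE+8, and 1 lower in CFAE+8+MSC against CFAE+6. Hedgehog genes came to 3 higher in CFAE+8+MSC and 3 higher in CFAE+6, each against CFAE+8, and 0 lower in CFAE+8+MSC against CFAE+6. FOXO targets came to 0 lower in CFAE+6 against CFAE+8, and 1 higher and 1 lower in CFAE+8+MSC against CFAE+6.

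In the test against a 1.2-fold change, forkhead genes came to 5 higher in CFAE+8+MSC and 2 higher in CFAE+8 against MEF, 0 lower in CFAE+8+MSC and 0 lower in CFAE+6 against CFAE+8, and 2 higher in CFAE+8+MSC against CFAE+6. PI3K genes came to 9 lower in CFAE+8+MSC, 7 lower in CFAE+6 and 4 higher in CFAE+8 against MEF, 3 higher and 0 lower in CFAE+8+MSC and 2 higher and 0 lower in CFAE+6 against CFAE+8, and 0 higher and 1 lower in CFAE+8+MSC against CFAE+6. FOXO targets came to 5 higher in CFAE+8+MSC and 5 higher in CFAE+6 against MEF, 0 lower in CFAE+8+MSC and 1 higher and 0 lower in CFAE+6 against CFAE+8, and 0 higher and 0 lower in CFAE+8+MSC against CFAE+6. FOXM1 targets came to 3 lower in CFAE+8+MSC and 4 lower in CFAE+6 against CFAE+8, and 0 higher in CFAE+8+MSC against CFAE+6. Hedgehog genes came to 3 higher and 2 lower in CFAE+8+MSC and 3 higher and 0 lower in CFAE+6 against CFAE+8, and 0 lower in CFAE+8+MSC against CFAE+6.

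With only the 2 groups compared, FOXO targets came to 4 higher and 2 lower in CFAE+8+MSC against CFAE+8 and 1 lower against CFAE+6, FOXM1 targets to 1 higher, PI3K genes to 1 lower and hedgehog genes to 0 lower in CFAE+8+MSC against CFAE+6.

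Leaving out each library in turn, with the lone library assumed to vary like the other groups, gave these ranges. Forkhead genes were 3 to 4 higher in CFAE+8 against MEF, 1 to 2 lower in CFAE+6 against CFAE+8 and 3 to 7 higher in CFAE+8+MSC against CFAE+6. FOXM1 targets were 5 to 7 lower in CFAE+8+MSC and 6 to 9 lower in CFAE+6 against CFAE+8, and 0 to 1 higher in CFAE+8+MSC against CFAE+6. FOXO targets were 2 to 4 higher and 0 to 2 lower in CFAE+8+MSC and 2 to 4 higher and 1 to 3 lower in CFAE+6 against CFAE+8, and 0 to 3 higher and 0 to 2 lower in CFAE+8+MSC against CFAE+6. Hedgehog genes were 3 to 5 higher in CFAE+8+MSC and 3 to 5 higher and 3 to 6 lower in CFAE+6 against CFAE+8, and 0 to 1 higher and 0 to 1 lower in CFAE+8+MSC against CFAE+6. PI3K genes were 4 to 7 higher and 1 to 3 lower in CFAE+8+MSC and 0 to 3 lower in CFAE+6 against CFAE+8, and 1 to 3 higher and 1 to 2 lower in CFAE+8+MSC against CFAE+6. Depth limits Foxe3, Foxq1 in CFAE+8 and MEF, and the 12 untested genes, which rest on few counts.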
